A study of Mus musculus with 12 samples.

Results

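Astrocytes and neural progenitors of the mouse dentate gyrus were compared gene by gene. Of the 50600 genes in the deposited count table, 14806 entered the comparison, those for which 4 or more of the 8 libraries used held 10 counts or more. The 8 libraries were 4 of astrocytes and 4 of progenitors, out of 12 in the series, and the other cell type is not described here. All cells came from adult Nestin-GFP mice of 6 to 9 weeks, in which regulatory sequence of the nestin gene drives green fluorescent protein. The mice were anaesthetised with ketamine and xylazine and perfused with PBS before the tissue was taken. The tissue was cut with scalpels, digested with papain, dispase and DNase, and triturated, and the cells were stained with antibodies. Live cells without CD31, CD45, O1 or O4, surface markers of endothelial, blood and oligodendrocyte lineage cells, were sorted. Astrocytes were the GFP-negative cells with GLAST, a glutamate transporter at the cell surface, and progenitors were the GFP-positive cells without GLAST. Each library held 50 cells and its cDNA was amplified before sequencing. The libraries are called a to d within each group, as names only. The libraries of a group were biological replicates with a separate mouse brain for each. The columns do not say which astrocyte and progenitor libraries shared a brain, if any did, and the fit treats all 8 as independent. Beyond the markers that define the 2 cell types, the question was which classes of genes and which pathways differed.

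Astrocytes of the dentate gyrus take up glutamate and potassium released by neurons, store glycogen, and secrete lipoproteins and other proteins into the neuropil. Progenitors in the subgranular zone divide and then pass through a neuroblast stage, with an immature cytoskeleton and growing processes, on the way to granule neurons. Immediate early genes, which are also followed below, encode transcription factors and feedback proteins whose transcription starts within minutes of a calcium or growth factor signal.

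The genes of the sort were examined first. Slc1a3, which encodes GLAST, was at 3760, 4793, 4255 and 6311 counts per 1000000 (CPM, scaled by library) in astrocytes a to d and at 3249, 2272, 3485 and 2403 CPM in progenitors a to d. The groups did not overlap, but the log2 fold change of 0.74 ± 0.21 (SE) did not pass the test (adjusted p = 0.054 by the edgeR quasi-likelihood test, Benjamini-Hochberg method), so the surface antigen and its mRNA were not equally distinct. Nes, the endogenous nestin gene, had no count in the astrocyte libraries and was at 20.6, 0.0849, 5.87 and 14.4 CPM in progenitors, too few counts to be tested. Ptprc, which encodes CD45, had no count in any of the 8 libraries, and Pecam1, which encodes CD31, reached at most 0.849 CPM. Of the astrocyte markers, Slc1a2, Aldoc, Glul and Grin2c were called higher in astrocytes, while Aqp4 (574 CPM against 480 CPM on average) and Kcnj10 were not. Of the progenitor markers, Dcx, Eomes, Igfbpl1, Stmn1 and Sox11 were called lower in astrocytes. Others were not called, among them Neurod1, Tubb3 and Pcna, and Mki67 and Top2a did not pass the count filter. The progenitor libraries also carried genes of oligodendrocyte precursors at high levels, and 3 of the 4 carried genes of mural cells. Both are given in paragraphs of their own. The part of these cells in the other genes called lower, those of axon guidance, cell cycle and signalling included, was not tested.

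Total counts were 5357232 to 6253680 in astrocytes and 9041498 to 12535028 in progenitors, and 9430 to 11655 genes against 16389 to 17015 genes had at least 10 counts. Among the genes tested, 2002 to 3116 were at 0 in an astrocyte library and 127 to 184 in a progenitor library. Spearman's rho between libraries over the tested genes was 0.536 to 0.613 among astrocytes and 0.871 to 0.891 among progenitors. Among 3179 genes with more than 50 CPM in both groups, the median coefficient of variation was 0.632 in astrocytes and 0.206 in progenitors. The 2 groups thus differed in depth, in the number of genes seen and in their spread, and a lower count in astrocytes cannot be told apart from less RNA recovered per cell or from fewer cells of the kind that holds it.

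With edgeR's quasi-likelihood test and an adjusted p of at most 0.05, 363 genes (2.45% of those tested) were higher in astrocytes and 915 genes (6.18%) were lower. The 2 sets were of different kinds. Genes called higher were abundant, with a median of 372 CPM in astrocytes and a median log2 fold change of 1.90, and 350 of them had at least 10 counts in every progenitor library as well. Genes called lower were scarce, with a median of 14.7 CPM in progenitors and a median log2 fold change of -7.63. Of these 915 genes, 729 (79.7%) were at the floor in astrocytes, meaning at most 3 counts in each of the 4 libraries, and 38 had at least 10 counts in every astrocyte library. No tested gene was at the floor in progenitors. The genes called higher took 31.9% to 37.9% of the counts of an astrocyte library and 12% to 15.9% of those of a progenitor library. The genes called lower took 0.392% to 0.597% and 5.44% to 6.55%. The CPM of the 2 groups did not overlap for 861 genes that were higher in astrocytes (5.82% of those tested) and for 2245 that were lower (15.2%), and all 915 lower calls and 353 of the 363 higher calls were among them. A gene at the floor in astrocytes could pass the filter only with 10 counts or more in every progenitor library. For such genes, among them the 729 lower calls, the lack of overlap was therefore fixed in advance. Over all genes tested, the median log2 fold change was 0.03.

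**Figure D1:**
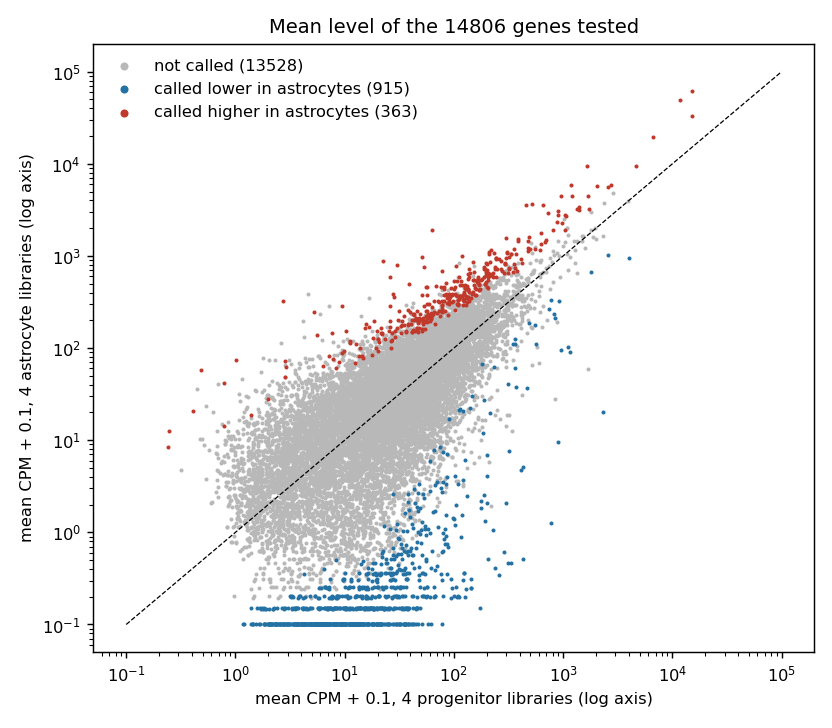
Mean level of each tested gene in the 4 progenitor libraries (horizontal) and the 4 astrocyte libraries (vertical), in CPM plus 0.1 on log axes. Red points are the 363 genes called higher in astrocytes, which lie mostly at high levels, blue points are the 915 called lower, which lie mostly along the lower edge where astrocytes held 0 to 3 counts per library, and the dashed line marks equal levels.

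The split of the calls depended on how scarce genes were treated. When at least 10 counts were asked of every library, 5862 genes were left and the calls were 191 higher and 96 lower, so that 33.4% of calls were lower in place of 71.6%. DESeq2 called 952 genes higher and 1479 lower (60.8% lower), and held 362 of the 363 and 894 of the 915. Leaving out single libraries moved the number of higher calls from 363 to 206 without progenitor a, 178 without progenitor b, 147 without progenitor c, 153 without progenitor d and 573 without astrocyte a. The number of lower calls moved from 915 to 572 without progenitor c and 1418 without astrocyte d. These fits asked 10 counts of 3 or more libraries, so more genes were tested than in the main fit. Without astrocyte d, 16117 genes were tested, and 837 of the 1418 lower calls were among the 915. Genes are therefore given below with the libraries whose removal cost them the call. Counting also ignored strand, and other annotated genes overlap 32.8% of the exonic bases of Nefl, 26.2% of Tuba1a, 23.4% of Ccnd1, 21.9% of Phkg2, 20.5% of Dll1, 19.7% of Cdk4 and 15.3% of Pkm.

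Among 68 lists of genes with known roles, covering 2135 tested genes, 84 genes were called higher and 130 lower, while 279 higher and 785 lower calls were in no list. The share of members called was highest, in the higher direction, for secreted astroglial products and for ion transport (7 of 22 each, 31.8%, against 2.45% of all genes tested). In the lower direction it was highest for oligodendrocyte precursor genes (12 of 17, 70.6%), immediate early genes (9 of 25, 36%), immature neuron genes (12 of 38, 31.6%) and neurogenic transcription factors (6 of 20, 30%), against 6.18% of all genes tested. The counts of calls per list given below are to be read beside these shares, 2.45% higher and 6.18% lower. The plot of calls per list shows these at its ends and the large housekeeping lists in the middle, near or under the background.

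**Figure D2:**
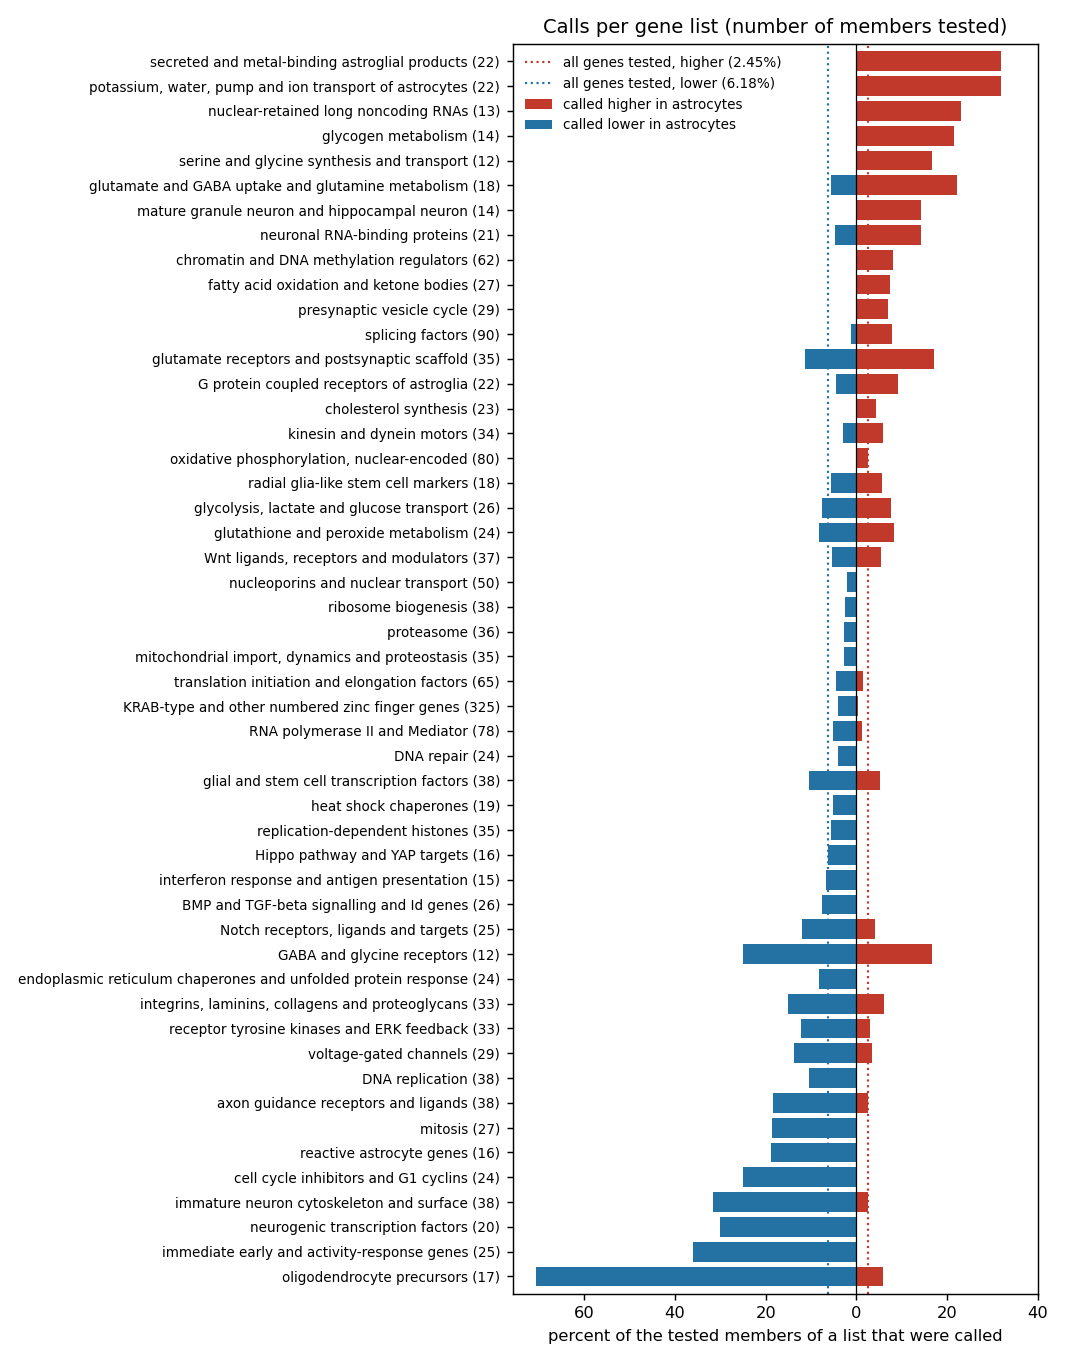
Percent of the tested members of each gene list that were called higher (red, to the right) or lower (blue, to the left) in astrocytes, for the lists with at least 10 tested members and at least 1 call; the number of tested members is in parentheses. Dotted lines mark the 2.45% and 6.18% of all genes tested.

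Several transport genes of astrocytes were higher in the astrocyte libraries. Slc1a2, the main glutamate transporter of the forebrain (GLT-1), was at 5679, 5625, 6336 and 5472 CPM in astrocytes and 2135, 2350, 1995 and 1646 CPM in progenitors, a log2 fold change of 1.51 ± 0.15 (SE, adjusted p = 0.00096). Every astrocyte library lay above every progenitor library. Of 22 tested genes for pumps, potassium, water and ion transport, 7 were called, all higher, with a median log2 fold change of 1.18 against 0.03 over all genes, and their summed level was 11684 to 15028 CPM in astrocytes and 4439 to 6640 CPM in progenitors. They included Dmd and Dtna, which encode dystrophin and dystrobrevin of the complex that anchors channels at vascular endfeet, with log2 fold changes of 1.61 ± 0.24 (SE, adjusted p = 0.0073) and 1.73 ± 0.28 (SE, adjusted p = 0.01). Atp13a4, a P5-type cation pump, had the largest change of the list (5.73-fold, adjusted p = 0.0031), at 1067, 569, 949 and 821 CPM against 186, 155, 154 and 99.0 CPM. These 3 transport genes and Slc1a2 kept the call with each library left out, whereas Atp1b2, a sodium pump subunit on the list (log2 fold change 0.93, adjusted p = 0.035), lost it without astrocyte b or d or progenitor b, c or d (adjusted p up to 0.10).

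Glutamate and GABA uptake and glutamine metabolism had 4 of 18 members higher and 1 lower. Glul, glutamine synthetase, was at 1739, 1834, 1217 and 2799 CPM in astrocytes against 1069, 782, 717 and 662 CPM in progenitors (log2 fold change 1.23 ± 0.28 SE, adjusted p = 0.021). Slc6a11, the astroglial GABA transporter GAT-3, was at 138 to 359 CPM against 49 to 82.3 CPM (adjusted p = 0.028). Slc38a1, a glutamine carrier of neurons and their precursors, went the other way, with 9.70, 0.564, 0.208 and 3.77 CPM in astrocytes and 62.8, 139, 151 and 132 CPM in progenitors (log2 fold change -5.09 ± 1.14 SE, adjusted p = 0.02). Glul and Slc38a1 lost the call without progenitor b, c or d (adjusted p up to 0.071 and 0.063), and Slc6a11 without astrocyte b or any 1 progenitor library (up to 0.094). Of 7 connexin and pannexin genes, 1 was higher and 2 were lower. Gjb6, the astroglial connexin 30, was higher, at 538, 795, 802 and 536 CPM in astrocytes against 339, 332, 311 and 400 CPM in progenitors (log2 fold change 0.95 ± 0.26 SE, adjusted p = 0.047). The groups did not overlap, but the call was lost without astrocyte b or c or any 1 progenitor library (adjusted p up to 0.15). Gjc3, connexin 29 of oligodendrocyte lineage cells, was lower in astrocytes with 0.633 to 2.08 CPM against 137 to 273 CPM (adjusted p = 0.00096), and Panx1, a pannexin channel, had 2 counts in all astrocyte libraries together against 13.9 to 44.4 CPM (adjusted p = 0.016). Gja1, connexin 43, was at 1041 to 2564 CPM in astrocytes and 775 to 1459 CPM in progenitors and was not called (adjusted p = 0.12).

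Secreted products were the most abundant group on the higher side. Apoe, the lipoprotein of brain lipid transport, was at 28390, 32622, 33675 and 36544 CPM in astrocytes and 17735, 16691, 14970 and 11656 CPM in progenitors (2.15-fold, edgeR adjusted p = 0.0027). Cst3, the protease inhibitor cystatin C, was at 19593 ± 5027 against 6692 ± 1973 CPM (SD, n = 4, edgeR adjusted p = 0.0098), and Cpe, carboxypeptidase E of the secretory pathway, at 3402 ± 690 against 1410 ± 120 CPM (SD, n = 4, edgeR adjusted p = 0.0063). Clu and Sparcl1, encoding clusterin and the synaptogenic protein hevin, were also called (log2 fold changes 1.05 and 1.13, adjusted p = 0.019 and 0.02), but Clu lost the call without progenitor c (adjusted p = 0.06) and Sparcl1 without progenitor b, c or d (up to 0.056). The summed level of the 22 genes was 66280 to 96592 CPM in astrocytes and 29186 to 46684 CPM in progenitors. All 7 calls of the list were in the higher direction.

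Energy metabolism moved in parts. Glycogen metabolism had 3 calls among 14 genes, all higher, with a median log2 fold change of 1.1 and sums of 2140 to 2261 CPM against 1004 to 1324 CPM. The 3 were subunits of phosphorylase kinase, which triggers glycogen breakdown, namely Phkg1 (340, 405, 296 and 448 CPM against 171, 79.8, 62.6 and 71.4 CPM, adjusted p = 0.016), Phkb and Phkg2, and all 3 lost the call without progenitor b, c or d. Phkb and Phkg2 also lost it without astrocyte b or progenitor a, and Phkg2 without astrocyte c (adjusted p up to 0.14). Glycolysis and glucose transport had 2 higher and 2 lower of 26 (7.69% each, against 2.45% and 6.18% of all genes). Aldoc, the brain aldolase, was higher (5865 against 2764 CPM on average, log2 fold change 1.09, adjusted p = 0.016, and 0.051 without progenitor c), whereas Slc2a3, the neuronal glucose transporter, was at 0.188 CPM in 1 astrocyte library and 0 in the others against 11.5 to 23 CPM (adjusted p = 0.016). Pkm, the pyruvate kinase gene, was at 383, 281, 197 and 464 CPM against 697, 758, 775 and 893 CPM (log2 fold change -1.24, adjusted p = 0.028, and up to 0.10 without astrocyte b or any 1 progenitor library). Glutathione and peroxide metabolism had 2 higher and 2 lower of 24 (8.33% each, against 2.45% and 6.18% of all genes), with a median log2 fold change of 0.22. The glutathione transferases Gstm1 (1905, 2568, 2118 and 4415 CPM against 924 to 1214 CPM, adjusted p = 0.016) and Gstm5 (1486 to 2264 CPM against 830 to 1272 CPM, adjusted p = 0.029) were higher. Gclc, the catalytic subunit of the rate-limiting enzyme of glutathione synthesis, was lower, with 2 counts in astrocytes against 2.65 to 15.3 CPM in progenitors (adjusted p = 0.019). Hmox1, the inducible heme oxygenase, was also lower, with no count in astrocytes and 2.80 to 19.4 CPM in progenitors (at least 18.6-fold higher there, adjusted p = 0.018). Gstm5 lost the call without astrocyte c or progenitor b, c or d (adjusted p up to 0.081), Gclc without progenitor d and Hmox1 without progenitor c or d (up to 0.053 each). No gene of the TCA cycle was called among 19 by edgeR (3 at an unadjusted p of at most 0.05, all higher, and 0 by DESeq2). Of 80 nuclear-encoded genes of oxidative phosphorylation, 2 were higher, or 2.50% against 2.45% of all genes. Their summed level was 27975 CPM in astrocyte a and 14091 to 14675 CPM in the other 3 astrocyte libraries, against 11387 to 12996 CPM in progenitors.

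Genes of neuronal dendrites and synapses were among the largest changes on the higher side, and they varied between the astrocyte libraries. Camk2a, a kinase of excitatory synapses whose mRNA is carried into dendrites, was at 4012, 1516, 1576 and 471 CPM in astrocytes and at 55.7, 75.6, 46.6 and 72.9 CPM in progenitors (log2 fold change 4.92 ± 0.60 SE, adjusted p = 0.0028). Ddn, which encodes dendrin and whose mRNA is also dendritic, was at 2314, 479, 701 and 43.3 CPM against 20, 32, 20.3 and 15.9 CPM (adjusted p = 0.016). In both genes astrocyte a was highest and astrocyte d lowest, and astrocyte d still lay above every progenitor library. Hpcal4, a neuronal calcium sensor, was at 1830, 925, 279 and 187 CPM against 17.2 to 40.7 CPM (adjusted p = 0.0099). Shank1, a postsynaptic scaffold gene, was at 1037, 143, 250 and 128 CPM against 25.5 to 30.2 CPM (adjusted p = 0.016). These 4 genes kept the call with each library left out.

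Other neuronal genes were called but rested on fewer libraries. Nefl, a neurofilament gene of axons, was at 685, 131, 133 and 36.2 CPM against 0.142, 0.425, 7.57 and 12.4 CPM (adjusted p = 0.041), and Snap25, of the vesicle fusion complex, at 573, 196, 334 and 126 CPM against 69.1 to 103 CPM (adjusted p = 0.042). Both lost the call without astrocyte a, without astrocyte c or without any 1 of the progenitor libraries (and Nefl without astrocyte b), with adjusted p up to 0.14. Of 14 tested markers of mature granule and hippocampal neurons, 2 were called higher, Nrgn (7.33 to 154 CPM against 2.04 to 3.97 CPM) and Camk2n1 (24.5 to 229 CPM against 4.93 to 13.5 CPM), and both lost the call without any 1 progenitor library, and Camk2n1 also without astrocyte a or b (adjusted p up to 0.14). The summed level of the 20 markers was 379 to 1803 CPM in astrocytes and 410 to 493 CPM in progenitors and overlapped. The part of other cell types in these values was not tested.

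Receptors for glutamate and GABA were split by subunit. Of 35 genes for glutamate receptors and their scaffolds, 6 were higher and 4 lower, and their sum was 6191 to 12702 CPM in astrocytes and 3039 to 3595 CPM in progenitors. Grin2c, the NMDA receptor subunit found in astrocytes, was at 405, 450, 331 and 635 CPM against 90.4, 101, 56.5 and 58.1 CPM (5.95-fold, adjusted p = 0.0063). Gria2, the AMPA receptor subunit that limits calcium entry, was 2.52-fold higher (adjusted p = 0.0073). Gabrb1, a GABA-A receptor subunit, was at 1106, 811, 1645 and 1161 CPM against 436, 300, 357 and 325 CPM (log2 fold change 1.74 ± 0.27 SE, adjusted p = 0.009). Gabra3 and Gabrb2, which encode other GABA-A subunits, had no count in any astrocyte library and were at 7.49 to 20.1 CPM in progenitors, at least 23.8-fold and 16.6-fold higher there when astrocytes are set to 3 counts per library. Scn3a, the sodium channel of immature neurons, was likewise at 0 in astrocytes and at 20.8 to 53 CPM in progenitors, at least 70.5-fold higher. Each of these 6 genes kept the call with any 1 library left out.

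Some abundant nuclear RNAs were higher in astrocytes. Of 13 tested long noncoding RNAs listed as staying in the nucleus, 3 were called, all higher (Malat1, Gm26917 and Gm42418), the median log2 fold change was 0.53, and the summed level was 62926 to 93063 CPM against 13606 to 18990 CPM. Gm26917 and Gm42418 lie in sequence that resembles ribosomal RNA, so the gene their counts belong to is uncertain, and they are given with the repeated loci below. Malat1 was the only other call of the list. Malat1, the long noncoding RNA of nuclear speckles (chr19:5795690-5802672, GRCm38), was at 51956, 57013, 80565 and 54301 CPM against 15998, 15997, 16692 and 11706 CPM (4.04-fold, adjusted p = 0.00035). Neat1, the architectural RNA of paraspeckles and second on the list, was at 283 to 765 CPM against 148 to 362 CPM and was not called (adjusted p = 0.17). The antisense gene Gm37376 lies wholly within Malat1 on the opposite strand, and reads counted without strand cannot be told apart between them. Gm37376 was at 65584 CPM in astrocyte c, beside 80565 CPM for Malat1, so the same reads appear to have been counted for both genes. Such double counts would also enter the library totals and the CPM of other genes. Son, which encodes a scaffold protein of speckles, was at 2777, 3856, 5323 and 2682 CPM against 523, 579, 596 and 379 CPM (7.05-fold, adjusted p = 0.00096). Srrm2, the other large speckle scaffold, was 4-fold higher (2897 ± 669 against 725 ± 91.6 CPM, SD, n = 4, edgeR adjusted p = 0.0013), and Luc7l3, a U1-associated splicing factor, 5.21-fold (adjusted p = 0.001). Of 90 splicing factor genes, 7 were higher and 1 lower, and the median log2 fold change of all 90 was -0.18. A few abundant splicing genes were thus higher, while most members of the list were not called. Their summed level, in which the abundant genes weigh most, was 17371 to 21808 CPM against 11906 to 14185 CPM.

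Of 62 chromatin regulators, 5 were called (8.06% against 2.45% of all genes), all higher, with a median log2 fold change of 0.72. The groups did not overlap for 12 genes in the higher direction and 6 in the lower, where the shares of all genes tested were 5.82% and 15.2%. Kmt2a, a histone H3 lysine 4 methyltransferase, was at 732, 517, 625 and 464 CPM against 160, 163, 112 and 115 CPM (adjusted p = 0.0062). Chd4, the remodelling ATPase of the NuRD complex, was 3.61-fold higher (adjusted p = 0.016). Syne1, which encodes the giant nesprin 1 of the nuclear envelope, was at 5047, 5877, 7380 and 5230 CPM against 1682, 1203, 920 and 959 CPM (4.94-fold, adjusted p = 0.00096). Kif1a, a kinesin that carries vesicles along axons, was 3.74-fold higher (adjusted p = 0.0052). All of these kept the call with each library left out, as did Malat1, Son, Srrm2 and Luc7l3.

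Many of these genes are long, and calls were therefore counted by exonic length, the number of bases in the exons of a gene. Among protein-coding genes in 6 classes of equal size, the percent called higher was 1.2% in the shortest class (51 to 2370 bases), 1.35%, 1.60%, 2.05% and 2.80% in the next ones, and 7.70% in the longest (8561 to 123179 bases). The percent called lower was 7.70% in the shortest class and 4.15% in the longest. Longer genes also hold more counts, so the classes were split again by level. Of the protein-coding genes in the highest of 6 level classes, 18.6% of the longer ones were higher (223 of 1196, median log2 fold change 0.83) and 6.44% of the shorter ones (77 of 1196, median 0.14). In the next class these shares were 1.18% and 0.756%, and in every class below it at most 0.431% of either part was higher. Over the 14760 tested genes with an exonic length, Spearman's rho between length and log2 fold change was 0.07. In the lowest level class, 21.9% of the longer and 21.6% of the shorter genes were called lower. By gene type, 2.78% of 12001 protein-coding genes, 2.87% of 348 lincRNAs and 0.441% of 681 antisense genes were higher. The lower shares were 6.02%, 8.91% and 7.78%. Each count is a description, since the level classes and the calls come from the same counts.

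**Figure D3:**
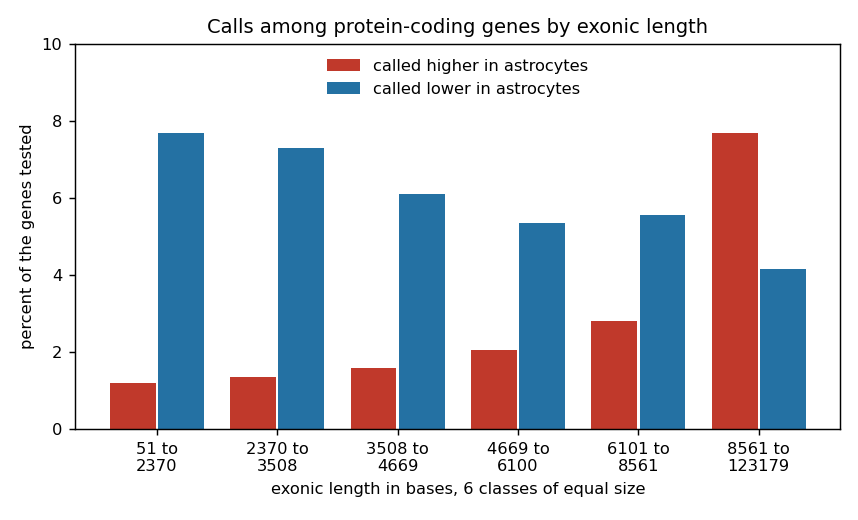
Percent of the tested protein-coding genes called higher (red) and lower (blue) in astrocytes in 6 classes of exonic length, with the range of each class in bases. The higher share goes from 1.2% in the shortest class to 7.70% in the longest, and the lower share from 7.70% to 4.15%.

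Some repeated loci were also higher in astrocytes. Gm26917 and Gm42418, 2 noncoding genes on chromosome 17 (chr17:39843013-39846341 and chr17:39846958-39848788) in sequence that resembles ribosomal RNA, were at 8521 to 10466 CPM against 1219 to 1878 CPM and at 728 to 1341 CPM against 37.2 to 58.1 CPM (adjusted p = 0.00021 and 0.00029). Gm10800 and Gm21738, gene models in satellite-like repeats, were at 148, 357, 540 and 246 CPM against 0.425 to 4.75 CPM (adjusted p = 0.004) and at 35.2, 129, 49 and 16.3 CPM against 0.170 to 0.852 CPM (adjusted p = 0.012). Such loci share reads with near-identical copies, so the gene that each count belongs to is uncertain.

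**Figure D4:**
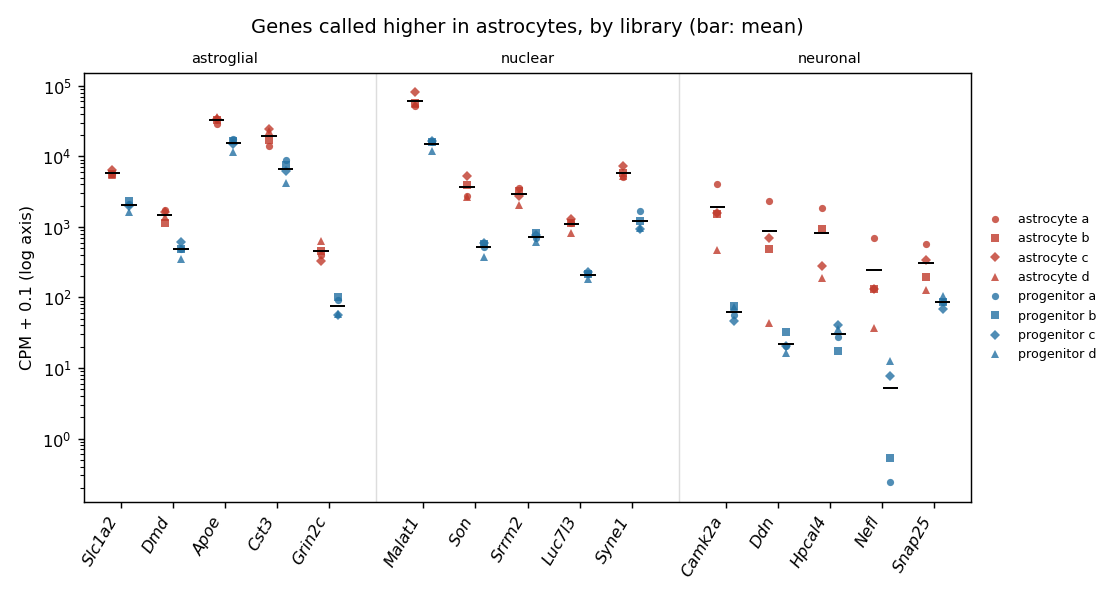
Level of 15 genes called higher in astrocytes in each library, in CPM plus 0.1 on a log axis, with astrocytes in red, progenitors in blue, a marker shape per library and a bar at the mean. The astroglial and nuclear genes are tight within a group, while the neuronal genes spread more widely, Camk2a from 471 to 4012 CPM in astrocytes.

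On the lower side, genes of the neuroblast stage stood out. Dcx, the microtubule-binding protein doublecortin of migrating neuroblasts (chrX:143855842-143933311, GRCm38), had 6 counts in the 4 astrocyte libraries together (0.211, 0.188, 0.208 and 0.628 CPM) and was at 178, 275, 183 and 307 CPM in progenitors. The ratio of the pooled levels was 765 (exact 95% interval 351 to 2085, counting error only, edgeR adjusted p = 0.00021). Cd24a, a surface glycoprotein of neuroblasts, had 1 count in astrocytes and was at 140 to 233 CPM in progenitors (adjusted p = 0.00052). Stmn1, the tubulin-binding protein stathmin, was present in both groups, at 106, 108, 54.7 and 91.9 CPM against 1388, 1476, 623 and 1099 CPM (12.7-fold lower, adjusted p = 0.001). Tuba1a, the alpha-tubulin of young neurons, fell by 2.05 on the log2 scale (adjusted p = 0.005), and Actb, cytoplasmic actin, by 1.51 (adjusted p = 0.016). Igfbpl1, a secreted factor of newborn granule neurons, had no count in astrocytes and was at 81.5, 78.5, 18.1 and 53.6 CPM in progenitors, at least 94.7-fold higher there. Of 38 genes of the immature neuronal cytoskeleton and surface, 12 were lower and 1 higher, with a median log2 fold change of -2.02, and the sums were 5583 to 9797 CPM against 10932 to 15222 CPM. Tubb3, the neuronal beta-tubulin, was at 73.8 CPM in astrocyte a and at most 0.628 CPM in the other 3, against 169 to 431 CPM, and was not called (adjusted p = 0.19, and 0.00078 without astrocyte a). The 1 higher gene was Map2, the microtubule protein of dendrites, with 1178, 1194, 1102 and 263 CPM against 221 to 303 CPM. It overlapped between the groups and lost the call without astrocyte b or c or any 1 progenitor library (adjusted p up to 0.082).

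Of 20 tested neurogenic transcription factors, 6 were called, all lower, with a median log2 fold change of -3.08, and 12 did not overlap, against 15.2% of all genes. Of the 20, 3 were at the floor in astrocytes, where the count filter fixed the lack of overlap. Eomes, also known as Tbr2 and the marker of intermediate progenitors, had no count in astrocytes and was at 24.5, 31.9, 13.2 and 7.84 CPM in progenitors, at least 31.7-fold higher there (adjusted p = 0.016). Zbtb18, a repressor needed for granule neuron development, was at 19.6, 15.2, 10.8 and 33.1 CPM against 276, 216, 139 and 222 CPM (adjusted p = 0.0079). Neurod1, a factor of newborn granule neurons, was at 116 CPM in astrocyte a and at most 1.26 CPM in the other 3, against 89.0 to 324 CPM, and was not called (adjusted p = 0.45, and 0.0074 without astrocyte a). Nhlh2 and Scrt2, factors of early neuronal differentiation, had 1 count each in astrocytes and were at 10.7 to 19.8 CPM and 3.69 to 16.4 CPM in progenitors (adjusted p = 0.016 for both). Sox11, of the neuroblast stage, was at 107, 4.89, 13.9 and 19.9 CPM against 348 to 603 CPM (adjusted p = 0.023, and up to 0.061 without astrocyte c or d or any 1 progenitor library). H3f3b, which encodes the replication-independent histone H3.3, was among the abundant genes on this side, with 98.3, 64.3, 83.3 and 132 CPM against 1224, 1014, 715 and 854 CPM (10.1-fold lower, adjusted p = 0.00096). Of 38 axon guidance genes, 7 were lower and 1 higher (18.4% and 2.63%, against 6.18% and 2.45% of all genes). Sema5a, a transmembrane guidance cue, was at 0.376 to 1.66 CPM in astrocytes and 56.7 to 141 CPM in progenitors (adjusted p = 0.004), and Sema3c, a secreted one, had 2 counts in astrocytes and 14.9 to 61.8 CPM in progenitors (adjusted p = 0.011). Apart from Sox11 and Map2, the called genes named for the neuroblast stage and for axon guidance kept the call with each library left out.

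Genes of oligodendrocyte precursors had the largest share of members called of any list plotted. The sort removed cells with O1 or O4, which mark this lineage from the late precursor stage onward. Of 17 tested markers, 12 were lower in astrocytes and 1 higher, and the median log2 fold change was -5.98 (-4.55 with the gene at 0 in astrocytes set to its bound). Gpr17, a receptor of committed precursors, was at 0.211, 0.188, 0 and 1.05 CPM in astrocytes and 213, 197, 499 and 409 CPM in progenitors (adjusted p = 0.00096). Neu4, a sialidase of the same stage, was at 0.209 to 0.844 CPM against 213, 216, 365 and 351 CPM (adjusted p = 0.00021). Cspg4, the NG2 proteoglycan, was at 9.28, 2.07, 0.416 and 6.91 CPM against 374, 265, 585 and 417 CPM (adjusted p = 0.0053). The lineage factors Sox10 and Olig1 were at 0 to 6.07 CPM against 115 to 236 CPM and at 29.9 to 187 CPM against 948 to 1270 CPM (adjusted p = 0.016 and 0.012). All 4 progenitor libraries held these genes, with c and d above a and b for Gpr17 and Neu4. Pdgfra, the growth factor receptor of the precursors, was at 267 CPM in astrocyte a and at most 6.96 CPM in the other 3, against 406 to 887 CPM, and was not called (adjusted p = 0.3). Itpr2, on the list for its expression in committed precursors but also the calcium release channel of astrocytes, was the 1 higher member, at 798 to 1093 CPM against 257 to 386 CPM (adjusted p = 0.007). The 6 called genes named here kept the call with each library left out.

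Genes of myelinating oligodendrocytes did not follow the precursors. Ugt8a, which makes galactolipids of myelin, was lower in astrocytes (3 counts in all, against 25.1 to 81.2 CPM, adjusted p = 0.0077). Mbp, the myelin basic protein gene, was at 2114, 648, 252 and 53.2 CPM against 60.1, 35.2, 68.2 and 49.8 CPM and was called higher (adjusted p = 0.026), although astrocyte d overlapped the progenitors, and it lost the call without any 1 progenitor library (up to 0.086). Mobp, another myelin gene, was at 332, 596, 344 and 118 CPM against 0.176 to 39 CPM (adjusted p = 0.053). Astrocyte a was highest and astrocyte d lowest for Mbp, as for Camk2a and Ddn. The part of oligodendrocytes and neurons in these values was not tested.

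Immediate early genes were lower in astrocytes than in progenitors. Fos, which encodes a subunit of the AP-1 transcription factor (chr12:85473890-85477273, GRCm38), was at 4.64, 2.82, 1.87 and 70.5 CPM in astrocytes and 2514, 2331, 1471 and 2928 CPM in progenitors (116-fold lower, adjusted p = 0.016). Egr1, a zinc finger factor, was at 0.208 to 1.69 CPM against 951, 685, 354 and 1118 CPM (adjusted p = 0.00029). Ier2 had 8 counts in all astrocyte libraries and was at 452, 295, 348 and 626 CPM in progenitors (adjusted p = 0.00021). Junb and Jun, partners of Fos, were at 0.422 to 4.78 CPM against 152 to 414 CPM (adjusted p = 0.0025) and at 1.69, 1.5, 32.8 and 1.88 CPM against 774 to 1056 CPM (adjusted p = 0.013). Nr4a1, an orphan nuclear receptor, had 3 counts in astrocytes against 67.1, 218, 35.3 and 64.9 CPM (adjusted p = 0.0064). Of 25 tested genes of the list, 9 were called, all lower, with a median log2 fold change of -4.04, and 14 did not overlap, against 15.2% of all genes. Of the 25, 5 were at the floor in astrocytes, where the count filter fixed the lack of overlap. The summed level was 110 to 435 CPM in astrocytes and 3705 to 7572 CPM in progenitors. Every progenitor library was high and every astrocyte library low, and the 6 genes named kept the call with each library left out. The cells of both groups had been dissociated, stained and sorted. The part of that handling in these values, and in those of the ERK feedback and chaperone genes below, was not tested.

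Because these genes moved together, the 250 bases before their RefSeq start sites were searched for 2 promoter motifs through which calcium and growth factor signals act. The half-site of the cyclic AMP response element, TGACG on either strand, was present in 14 of the 27 listed genes with a promoter in the table (51.9%), in 27.8% of the 9975 tested genes with one, and in 19.8% of 19967 promoters of all genes. The CArG box bound by serum response factor was found in 1 of the 27 and in 1.34% of all. Sequence further upstream was not searched, and Egr1 and Ier2 were among the listed genes without a promoter in the table. The count therefore does not show that these genes lack such a box. Of the 5 called genes with a promoter in the table, 3 held the half-site and are shown here 5′ to 3′ (RefSeq, GRCm38.p6), with each match in capitals. Fos, at chr12:85473640-85473889 on the plus strand, had 2 matches, Nr4a1, at chr15:101266596-101266845 on the plus strand, had 4, all on the opposite strand and so written CGTCA, and Junb, at chr8:84978749-84978998 on the minus strand, had 1.
Fos: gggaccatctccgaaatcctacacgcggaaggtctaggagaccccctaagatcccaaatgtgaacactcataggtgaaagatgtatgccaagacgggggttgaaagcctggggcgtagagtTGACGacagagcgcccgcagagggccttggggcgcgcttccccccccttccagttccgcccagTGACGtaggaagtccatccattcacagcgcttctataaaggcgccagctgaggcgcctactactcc
Nr4a1: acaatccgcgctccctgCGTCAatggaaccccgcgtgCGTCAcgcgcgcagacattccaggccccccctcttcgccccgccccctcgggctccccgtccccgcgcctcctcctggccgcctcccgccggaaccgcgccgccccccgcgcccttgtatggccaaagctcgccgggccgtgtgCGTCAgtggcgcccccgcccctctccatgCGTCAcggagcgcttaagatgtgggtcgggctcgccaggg
Junb: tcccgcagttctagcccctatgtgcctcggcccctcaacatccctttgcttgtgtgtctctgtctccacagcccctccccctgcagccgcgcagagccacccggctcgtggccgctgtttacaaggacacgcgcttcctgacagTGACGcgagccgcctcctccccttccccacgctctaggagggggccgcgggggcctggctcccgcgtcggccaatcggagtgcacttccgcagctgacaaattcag
Jun and Egr2, the other called genes with a promoter in the table, had no match in this window. A match is a description of letters and not evidence that a factor was bound.

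Of 33 genes for receptor tyrosine kinases and ERK feedback, 4 were lower and 1 higher (12.1% and 3.03%, against 6.18% and 2.45% of all genes), and the median log2 fold change was 0.43. The 4 lower genes, Dusp6, Spry4, Spry1 and Dusp4, encode inhibitors of the pathway that are transcribed when it is active. Dusp6, the ERK phosphatase, was at 6.33, 2.44, 4.78 and 2.30 CPM in astrocytes and 94.1, 87.1, 111 and 119 CPM in progenitors (adjusted p = 0.0073). Spry4, a Sprouty inhibitor of receptor signalling, was at 0.837 to 1.45 CPM against 48.5 to 68.6 CPM (adjusted p = 0.008), and Dusp4 had 1 count against 8.99 to 71.7 CPM (adjusted p = 0.013). The higher gene was Insr, the insulin receptor, at 443 to 650 CPM against 131 to 194 CPM (adjusted p = 0.01). Sgk1, a kinase induced by glucocorticoids, had no count in astrocytes and was at 83.2, 37.5, 80.1 and 109 CPM in progenitors, at least 127-fold higher there (adjusted p = 0.007). Of 19 heat shock chaperone genes, 1 was called (5.26% against 6.18% of all genes in the lower direction), the median log2 fold change was -0.34, and the sums of 3111 to 5961 CPM and 4722 to 5442 CPM overlapped. The called gene was Dnajb1, an inducible cochaperone, which had 1 count in astrocytes against 34.2 to 67.3 CPM (adjusted p = 0.0073). Bag3, a cochaperone induced by the same stress, was at 15.4 to 64.3 CPM in astrocytes and 5.78 to 14.3 CPM in progenitors, higher in astrocytes without overlap but not called (adjusted p = 0.3). Of the reactive astrocyte genes, 3 of 16 were called, all lower, including Serping1, the complement C1 inhibitor (5 counts against 22.4 to 124 CPM, adjusted p = 0.007).

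Some cell cycle genes were low in astrocytes, inhibitors of division included, and DNA replication genes were highest in 1 progenitor library. Of 24 cell cycle inhibitors and G1 cyclins with their kinases, 6 were called, all lower, with sums of 556 to 763 CPM against 1266 to 2136 CPM. Inhibitors of the cycle were among these 6, beside Ccnd1 and Cdk4, so the list is not a measure of proliferation. Ccnd1, cyclin D1 of the G1 phase, had 4 counts in astrocytes and was at 114, 96.0, 169 and 110 CPM in progenitors (ratio of pooled levels 593, exact 95% interval 231 to 2177, counting error only, edgeR adjusted p = 0.0012). Cdk4, its kinase partner, was at 35.0, 98.9, 24.5 and 85.6 CPM against 353, 502, 270 and 313 CPM (5.90-fold lower, adjusted p = 0.016), and Ccng2 had 1 count against 20 to 62 CPM (adjusted p = 0.01). Of 38 DNA replication genes, 4 were called, all lower, with sums of 704 to 831 CPM in astrocytes and 4037 CPM in progenitor b against 1047 to 1268 CPM in the other 3 progenitor libraries. Mcm6, a subunit of the replicative helicase, was at 36.6, 415, 1.51 and 61.9 CPM in progenitors and had 3 counts in astrocytes (adjusted p = 0.016, and 0.06 without progenitor b). Mcm2, another subunit, was at 15.4, 188, 30.6 and 15.4 CPM in progenitors and had 11 counts in astrocytes (adjusted p = 0.036), and it kept the call only without astrocyte b (up to 0.16 without any other library). Pcna, the sliding clamp, was at 0.211, 31.4, 42.8 and 2.30 CPM in astrocytes and 34.9, 165, 46.4 and 20.1 CPM in progenitors and was not called (adjusted p = 0.54). Of 27 mitosis genes that could be tested out of 55, 5 were lower (18.5% against 6.18% of all genes), and the sums of 492 to 738 CPM in astrocytes and 609 to 2917 CPM in progenitors overlapped. Racgap1, which organises the central spindle, was at 231, 120, 37.4 and 33.5 CPM in progenitors and had 3 counts in astrocytes (adjusted p = 0.011), and Plk1, the mitotic kinase, had no count in astrocytes and was at 25.5, 11.2, 7.85 and 9.51 CPM in progenitors (at least 22.1-fold higher, adjusted p = 0.016). Mki67 and Top2a, the usual markers of cycling cells, did not pass the count filter. Mki67 was at 52.4, 32.3, 0.0946 and 0.705 CPM and Top2a at 51.3, 86.0, 0 and 0 CPM in progenitors a to d, so that a and b held them and c and d held few counts or none. Of 24 DNA repair genes 1 was lower and of 35 replication-dependent histone genes 2 were lower, or 4.17% and 5.71%, below the 6.18% of all genes, and the sums of both lists overlapped.

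**Figure D5:**
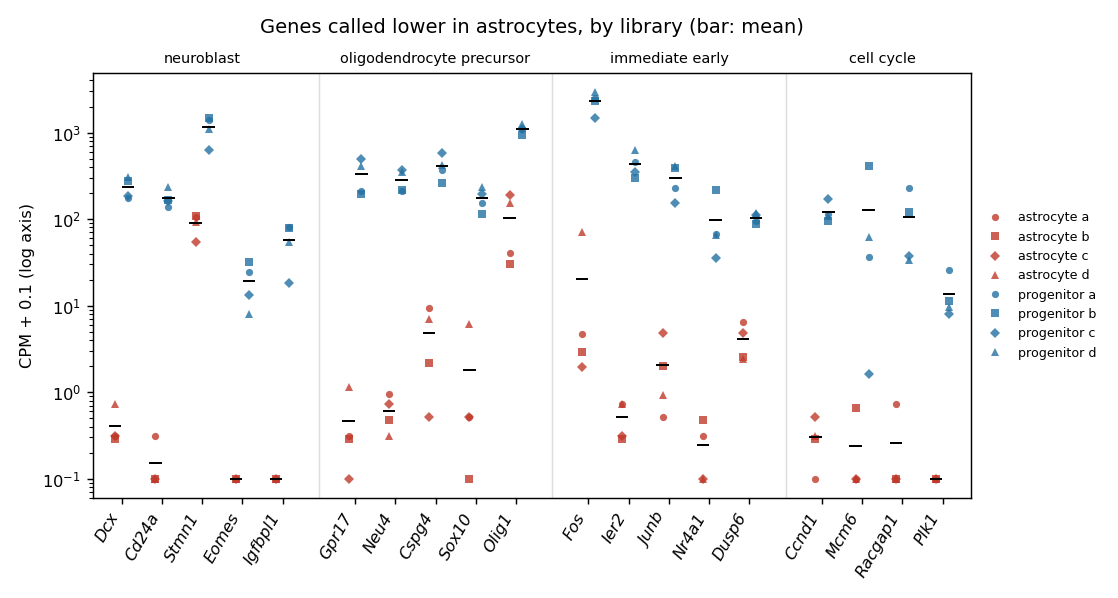
Level of 19 genes called lower in astrocytes in each library, in CPM plus 0.1 on a log axis, with astrocytes in red, progenitors in blue, a marker shape per library and a bar at the mean. Each plotted gene is higher in every progenitor library than in any astrocyte library, and the level and spread among progenitors differ by gene, with Mcm6 from 1.51 to 415 CPM.

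Signalling pathways held few calls. Of 25 Notch genes, 1 was higher and 3 lower (4% and 12%, against 2.45% and 6.18% of all genes). Notch2, a receptor, was at 154 to 577 CPM against 65.5 to 89.4 CPM (adjusted p = 0.022, and up to 0.08 without any 1 progenitor library), while the ligand Dll1 had no count in astrocytes and was at 12.7 to 35.9 CPM in progenitors (at least 35.8-fold higher, adjusted p = 0.016). Of 37 Wnt genes, 2 were higher and 2 lower (5.41% each, against 2.45% and 6.18% of all genes), with a median log2 fold change of 1.03 and sums of 3257 to 4053 CPM against 1629 to 1787 CPM. Apc, the scaffold of the complex that degrades beta-catenin, was at 683, 818, 841 and 713 CPM against 207, 261, 225 and 262 CPM (3.20-fold, adjusted p = 0.0061), and Daam2, a formin of the Wnt pathway, was 5.28-fold higher (adjusted p = 0.016). Nkd1, an induced Wnt antagonist, had no count in astrocytes and was at 3.31 to 25.5 CPM in progenitors (adjusted p = 0.017, and 0.052 without progenitor d). Of 26 BMP and TGF-beta genes, 2 were lower (7.69% against 6.18% of all genes), the ligands Bmp7 and Bmp4. Bmp7 had 1 count in astrocytes and was at 25.9, 8.83, 17.6 and 34.6 CPM in progenitors (adjusted p = 0.016). Bmp4, which is also a marker of committed oligodendrocyte precursors, had no count in astrocytes and was at 1.49, 5.18, 13.6 and 36.9 CPM in progenitors (adjusted p = 0.027, and up to 0.073 without progenitor b, c or d). No gene of 10 for Hedgehog signalling was called by edgeR (2 were higher at an unadjusted p of at most 0.05 and by DESeq2). Of 38 glial and stem cell transcription factors, 2 were higher and 4 lower. Nfib, a factor of glial and granule neuron maturation, was at 217, 344, 155 and 230 CPM against 706, 935, 552 and 1070 CPM (adjusted p = 0.016).

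Genes for protein synthesis and turnover showed few calls but some shared shifts. None of 79 cytosolic and none of 78 mitochondrial ribosomal protein genes was called by edgeR, with median log2 fold changes of 0.36 and -0.24. At an unadjusted p of at most 0.05, 9 cytosolic and 2 mitochondrial members were higher and 2 and 3 lower, and DESeq2 called 1 higher in each list and 1 and 3 lower. Of 65 translation factors, 1 was higher and 3 lower (1.54% and 4.62%, below the 2.45% and 6.18% of all genes). Eif2b1, a subunit of the exchange factor eIF2B, had 5 counts in astrocytes and was at 46.6, 41.4, 101 and 115 CPM in progenitors (adjusted p = 0.0025), and Eif4g1, the scaffold of the cap-binding complex, was higher (273 to 626 CPM against 112 to 151 CPM, adjusted p = 0.016, and 0.051 without progenitor c). The summed levels of proteasome genes (2596 to 4404 CPM against 4858 to 4961 CPM), of the cytosolic chaperonin and prefoldin (1313 to 1702 CPM against 2631 to 2882 CPM) and of endoplasmic reticulum chaperones (2518 ± 833 against 4502 ± 314 CPM, SD, n = 4) did not overlap and were lower in astrocytes. Their members called lower by edgeR numbered 1 of 36, 0 of 14 (3 at an unadjusted p of at most 0.05 and 2 by DESeq2) and 2 of 24. Of the latter, Pdia6, a disulfide isomerase, was at 231, 175, 177 and 121 CPM against 702, 655, 409 and 450 CPM (adjusted p = 0.016). The single change in mitochondrial import and maintenance was Tfam, which packages mitochondrial DNA, with 1 count against 18.5 to 41.4 CPM (adjusted p = 0.011).

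The 785 lower calls outside the lists were mostly of the scarce kind. Among the lower genes with the largest changes were Ackr3, a scavenger receptor for the chemokine CXCL12, Syt16, a synaptotagmin relative, and Oprl1, the nociceptin receptor. These 3 had no count in astrocytes and were at 31.6 to 116 CPM, 28.1 to 68.6 CPM and 22.6 to 55.3 CPM in progenitors, at least 101-fold, 82.9-fold and 66.6-fold higher there. Of 325 numbered zinc finger genes, many of which encode repressors of transposable elements, 13 were lower and 1 higher, or 4% and 0.308%, both below the shares of all genes. Zfp57, which maintains methylation at imprinted loci, had 3 counts in astrocytes and was at 33.8, 44.4, 34.4 and 33.5 CPM in progenitors (adjusted p = 0.0093).

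Markers of further cell types were counted in the same way. Of 17 microglia and macrophage markers, 3 could be tested and none was called by edgeR or DESeq2 or reached an unadjusted p of 0.05. Tmem119 and Pf4 had no count in the 8 libraries, and the summed level was 65 to 368 CPM in astrocytes and 52 to 69 CPM in progenitors, with C1qb at 141 CPM in astrocyte d and at most 0.422 CPM elsewhere. Of 15 endothelial markers, 4 were tested with the same outcome, and Cldn5, their defining tight junction gene, was at 0 throughout. Mural and fibroblast-like cell markers summed to 182 to 622 CPM in astrocytes and 735 to 3914 CPM in progenitors. This list holds Pdgfra and Cspg4, which oligodendrocyte precursors also express at the levels given above, so the sums are not of mural cells alone. Pdgfra made up 267 CPM of the sum of 622 CPM in astrocyte a. Vtn, a pericyte gene, was at 976, 1.27, 1554 and 801 CPM in progenitors a to d and at 107 CPM in astrocyte b, and Acta2, of smooth muscle, at 870 CPM in progenitor a and at most 5.40 CPM in the other 7 libraries. Of 9 tested members 1 was called, Cspg4, which precursors of oligodendrocytes also express. The part of these cells in the lower calls was not tested. Ependymal markers, red blood cell genes and the 3 tested genes of the GABAergic lineage also gave no call with either tool and no unadjusted p under 0.05.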

How the data were processed

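The cDNA from 50 sorted cells per library was amplified (SMARTer v4) and made into Nextera XT libraries. The sources name no molecular identifiers, so copies made by amplification count more than once, and intervals and floors cover counting error only. The authors deposited raw counts per gene. Reads of ribosomal RNA, mitochondrial DNA or PhiX were removed by them before alignment with HISAT2 (2.0.6 per the submitters' processing notes, which also list CASAVA 1.8.2) to GRCm38.p4. Reads were then assigned to genes of GENCODE M14 by featureCounts, ignoring strand. The deposited counts were not normalized. Columns of the 2 groups were matched by cell type only. Symbols were found for 50376 of 50600 identifiers.

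Counts of the 8 libraries (totals 5357232 to 12535028) were tested with edgeR 4.0.16 (R 4.3.3) by the quasi-likelihood test, with TMM scaling, over genes that reached 10 counts in 4 or more libraries, and a Benjamini-Hochberg threshold of 0.05. TMM factors were 0.813 to 0.901 in astrocytes and 1.145 to 1.191 in progenitors. CPM is the count per 1000000 counts in tested genes, scaled by these factors. A group was at the floor when no library of it held more than 3 counts. Where all 4 libraries were at 0, a fold is a lower bound computed with 3 counts per library. The steps were tested on simulated data. Alternatives were DESeq2-type size factors, DESeq2 1.42.0, all 12 libraries, other count filters, thinned counts and each library left out. With a library left out, the filter asked 10 counts of 3 or more libraries. Lists were described by counts and medians, with no test. Python 3.11.15, pandas 2.3.3, numpy 2.4.6 and scipy 1.17.1 were used.

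The comparison and the gene lists were chosen with earlier results of these data known. Genes were drawn from a rule: in each direction the 12 called genes of largest change and the 8 of highest level, in each list the 4 of smallest p and the first 2 written, the sort genes and the cell type markers. The rule gave 477 genes, of which 131 are named in the text. Which of them to name was decided with their values in view. The names Egr2, Jun, Map2, Shank1 and Spry1 were added with their values in view. For 4 genes no result is reported.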

Additional observations from a re-analysis of the deposited data

Results flagged for a closer look

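In groups of 4 libraries, a library was looked at again when its gap to the nearest other library, divided by the range of the group, exceeded Dixon's 95% critical value. Of 371 groups of 4 values, 39 did, and chance gives about 1 in 20. No explanation was tested.

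Astrocyte a had 13987 genes with at least 1 count, fewer than the others. It was highest for the summed levels of nuclear-encoded oxidative phosphorylation (27975 CPM), heat shock chaperones (5961 CPM) and aminoacyl-tRNA synthetases (2058 CPM). It was also highest for Pdgfra (267 CPM), Nefl (685 CPM), Shank1 (1037 CPM), Sox11 (107 CPM), Neurod1 (116 CPM) and Tubb3 (73.8 CPM). Astrocyte b stood above the other astrocyte libraries for Vtn (107 CPM), Mki67 (2.07 CPM) and Mcm2 (1.88 CPM), and astrocyte c for Dtna (1263 CPM), Jun (32.8 CPM) and Gm37376 (65584 CPM). Astrocyte d was highest for Fos (70.5 CPM), C1qb (141 CPM), Top2a (25.5 CPM) and Sox10 (6.07 CPM) and lowest for Map2 (263 CPM).

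Progenitor b was highest for the summed levels of DNA replication (4037 CPM), DNA repair (1264 CPM) and nucleoporin genes (3210 CPM), for Mcm6 (415 CPM), Mcm2 (188 CPM), Zfp57 (44.4 CPM) and Pecam1 (0.849 CPM), and lowest for the Hippo pathway genes (355 CPM). Progenitor a was highest for Acta2 (870 CPM), for the summed ependymal markers (255 CPM) and Wnt genes (1787 CPM) and for Phkg1 (171 CPM), lowest for Scn3a (20.8 CPM), and had the lowest TMM factor of its group (1.15). Progenitor c was highest for Gabrb2 (16.2 CPM). Progenitor d was lowest for Malat1 (11706 CPM) and for the nuclear-retained RNAs together (13606 CPM) and highest for Spry4 (68.6 CPM).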

How the results depend on the processing

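The number of genes called depended on the setting more than the direction of single genes. Higher calls went from 363 to 952 with DESeq2, 191 when every library had to hold 10 counts and 181 without a count filter, and ranged from 147 (without progenitor c) to 573 (without astrocyte a) with 1 library left out. Lower calls went from 915 to 1479, 96 and 348, and ranged from 572 (without progenitor c) to 1418 (without astrocyte d). Asking 10 counts of every library left 5862 of 14806 genes, which takes out those at the floor, while the causes of the other shifts were not tested. Of the 114 called genes named in the text, 86 kept the call with each library left out and 28 lost it in at least 1 such fit, with an adjusted p of at most 0.16. All 114 kept it with DESeq2-type size factors, with DESeq2 and with thinned counts, 4 lost it with all 12 libraries in the fit (Bmp7, Mcm2, Slc38a1 and Snap25, adjusted p up to 0.09), 16 without a count filter (among them Gabrb2, Pkm and Scrt2, up to 0.15) and 14 of the 60 that could be tested with 10 counts in every library (among them Aldoc, Clu, Glul and Gstm1, up to 0.24). Aqp4, which was not called, changed sign under that filter (log2 fold change -0.09). That filter moved the median log2 fold change of all genes to 0.13 and changed the sign of the median of 15 of 65 lists. Leaving out an astrocyte library moved the median of all genes to between -0.13 and -0.12, but those fits asked 10 counts of 3 or more libraries and so tested 16098 to 16176 genes. Other size factors, DESeq2, all 12 libraries and thinning changed the sign of no list median among 67. Dropping the count filter changed the sign of 1, and leaving out single libraries changed between 2 (without progenitor d) and 10 (without astrocyte a). No paired analysis was possible because the columns of the table carry no replicate numbers. Depth limits the lower calls, since 3 counts correspond to 0.564 to 0.633 CPM in astrocytes.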
